A study of Mus musculus with 4 samples.

Results

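Calcium channels, pumps and store proteins were followed in airway smooth muscle cells sorted from adult mouse lung. The genes were taken by symbol. All probe sets named Cacna, Cacnb, Cacng, Ryr, Atp2a, Atp2b or Atp2c, those named Itpr, Stim, Orai, Trpc, Trpm or Trpv with a number, and Casq1, Casq2, Pln and Ano1 were included. The rule found 70 of the 25206 probe sets, of which 23185 carry 1 gene symbol, and the rule uses symbols and no measured value. Trpc4ap, which encodes a protein that associates with a Trpc channel, and Trpc5os, an opposite-strand gene at the Trpc5 locus, came in by their names and are not channels. Family members not found by the rule were not analysed here.

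All mice carried the reporters Acta2-hrGFP and Cspg4-DsRED, and green cells without red signal were collected, so that the smooth muscle actin promoter drove the reporter kept and the Cspg4 promoter, active in pericytes and vascular muscle, the reporter left out. RNA of 3 mice was pooled per condition and hybridised to 1 expression array, giving 4 arrays and no replicates within a group. VAS mice were kept on sufficient chow (15 IU of vitamin A per gram). VAD mice received chow with less than 0.1 IU per gram, for 3 days in one statement of the protocol and 5 days in another. CTR mice ate a powdered sufficient diet mixed with corn oil for 3 days, and BMS mice the same powdered diet with 5 mcg per gram of an antagonist of all retinoic acid receptors. Expression is given as log2 values that the authors made with RMA, in which 1 unit is a 2-fold difference. Every difference below is between 2 arrays, so the spread between mice is not known, and a gene is called higher or lower on an array and not in a condition. In pooled RNA of sorted cells, fewer cells of a type and less RNA per cell cannot be told apart.

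Contraction of airway smooth muscle is set by cytosolic calcium. As background, calcium enters through voltage-gated L-type channels, Orai channels and Trp channels of the plasma membrane, and is released from the sarcoplasmic reticulum through inositol trisphosphate receptors (Itpr) and ryanodine receptors (Ryr). It is pumped back into the store by SERCA pumps (Atp2a), out of the cell by plasma membrane pumps (Atp2b) and into the Golgi apparatus by Atp2c pumps, while calsequestrins bind it inside the store and Stim proteins report an empty store to Orai. Ano1, a chloride channel opened by calcium, depolarises the muscle membrane.

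Of the 70 probe sets, 35 had a highest value at or above 6.05, the median of all named values, and are described as past the filter, beside 12395 of all named genes. On all 4 arrays 31 of them stood at or above that level. Casq1 did so on 3 arrays, Cacng4 on 2, and Cacna1h and Ryr2 on 1. Just inside the filter lay Cacna1h with a highest value of 6.07 and Cacng4 with 6.14, and just outside lay Cacng6 with 5.98 and Cacng8 with 5.79. The other 35 lay between 3.60 and 5.98. They included the skeletal muscle forms Cacna1s, Ryr1 and Atp2a1, the SERCA inhibitor phospholamban (Pln, 5.44, 5.33, 5.02 and 5.11 in VAS, VAD, CTR and BMS), and most Trpv, Trpm and gamma subunit genes. One of these 35, the cold-sensing channel gene Trpm8, was 1.5-fold apart in VAD and VAS (4.04 and 4.73), at a level where the arrays' background is not known.

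The median size of the difference, in either direction, was 0.14 for the 35 calcium genes and 0.14 for all genes past the filter in VAD and VAS. It was 0.21 and 0.15 in BMS and CTR, 0.26 and 0.21 in CTR and VAS, and 0.25 and 0.16 in VAD and CTR. In BMS and VAS it was smaller for the calcium genes, at 0.14 beside 0.19 for all genes. None of the 35 past the filter was 2-fold apart in VAD and VAS, where 0.653% of all genes past the filter were. In BMS against CTR, 1 of the 35 was 2-fold apart, Cacna1e, where 1.36% of all genes were. Between the control arrays CTR and VAS, 1 of the 35 was 2-fold apart, again Cacna1e, where 2.03% of all genes were. At 1.5-fold (0.58 on the log2 scale), 2 of the 35 were apart in VAD and VAS, beside 3.57% of all genes, 2 in BMS and CTR, beside 5%, and 3 between the controls, beside 8.54%. With 35 genes, 1 gene is 2.86%, so these counts do not set the group apart from the rest of the array. Against the control of the other experiment, 2 of the 35 were 2-fold apart in VAD and CTR, Casq2 higher and Cacna1e lower in VAD, beside 1.77% of all genes, and 0 in BMS and VAS, beside 2.03%. The median difference of the 35 was 0.0027 in VAD minus VAS, -0.08 in BMS minus CTR and 0.10 in CTR minus VAS, while the median of all genes past the filter was at most 0.0081 in each of these.

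**Figure D1:**
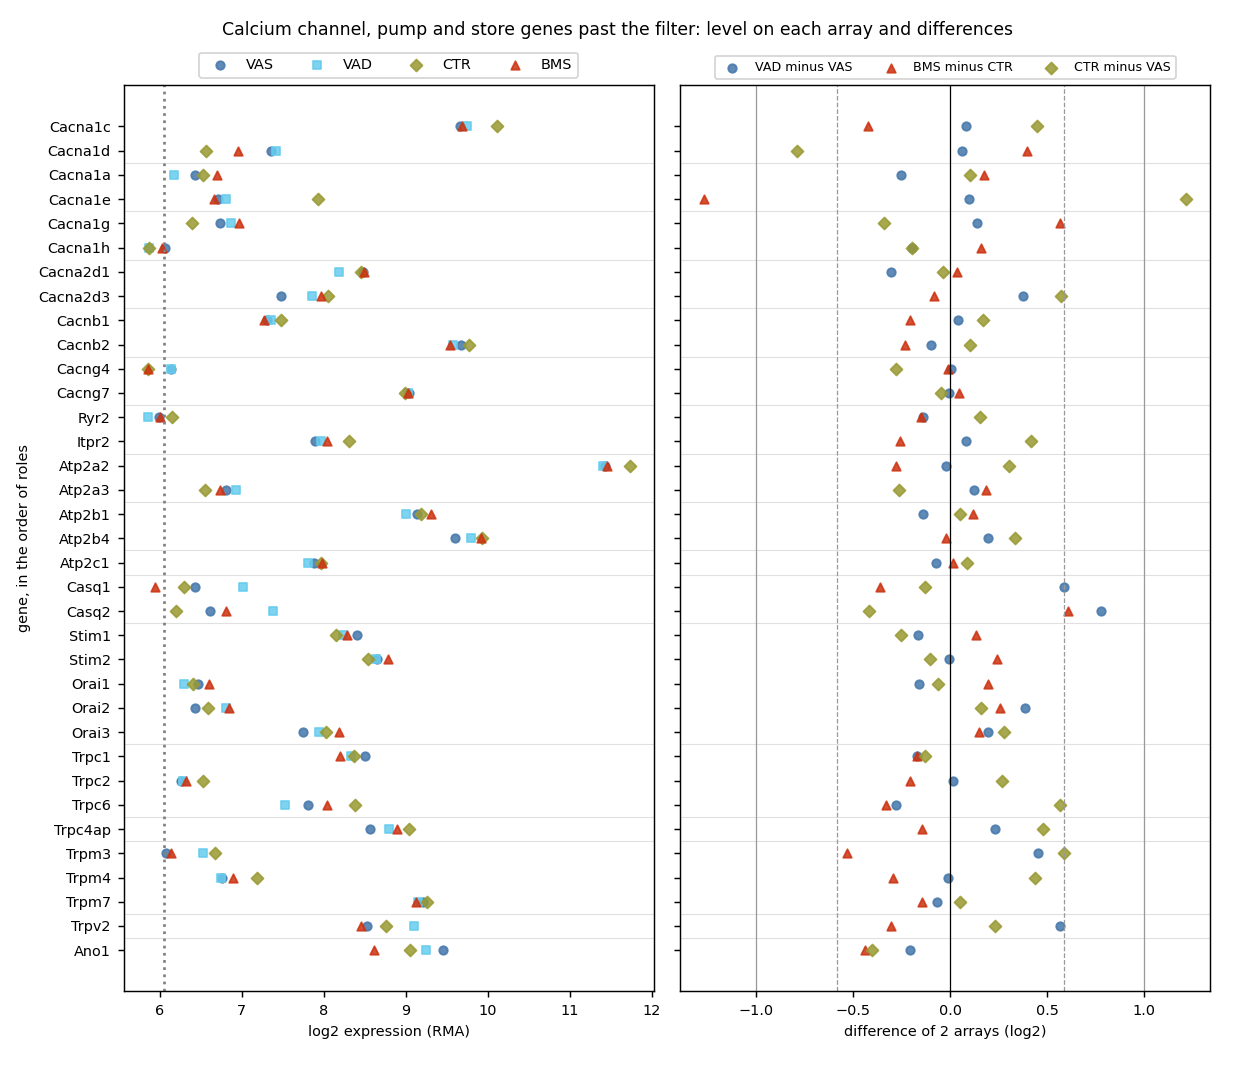
Left, log2 expression of the 35 calcium genes past the filter on the VAS, VAD, CTR and BMS arrays, 1 symbol per array, with the filter level of 6.05 as a dotted line. Right, the differences VAD minus VAS, BMS minus CTR and CTR minus VAS in log2 units, with dashed lines at 1.5-fold and solid lines at 2-fold. Cacna1e is past 2-fold in BMS minus CTR and in CTR minus VAS. Levels of different genes come from different probes and are not compared.

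Among the pore-forming subunits of voltage-gated channels, the R-type gene Cacna1e (Entrez gene 12290) stood apart on the CTR array. Its values were 6.72 in VAS, 6.81 in VAD, 7.93 in CTR and 6.67 in BMS. CTR was high and the other arrays lay within 0.15 of each other. Cacna1e differed by -1.27 in BMS minus CTR, a 2.41-fold size, and by 1.22 in CTR minus VAS, a 2.32-fold size. Against VAS in place of CTR, the BMS value differed by -0.05. The lower value in BMS is therefore a comparison with 1 high control array, and no second array shows the CTR level. The synaptic vesicle gene Syt1, a marker on the list of nerve and neuroendocrine cells, moved with it in BMS minus CTR, by -0.98 (7.27 in CTR, 6.29 in BMS), but stood at 7.01 in VAS and 6.99 in VAD. Of the 9 markers measured on that list, 5 were past the filter, and 3 of these 5 were above 0 in BMS minus CTR. The list's summed linear level was 1013, 991, 1066 and 1004 in VAS, VAD, CTR and BMS. The part of other cells in the Cacna1e values was not tested.

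The Cacna1e promoter is shown because this gene carried the largest difference of the group. The sequence is the 250 bases before the RefSeq start (GRCm38.p6, chr1:154725921-154726170, minus strand), 5′ to 3′. Retinoic acid receptors bind pairs of short sites of the form AGGTCA, and neither AGGTCA nor its reverse complement TGACCT is in this window, so it has no capitals. Here and below only these exact letters were searched, and variants of the site were not.
Cacna1e: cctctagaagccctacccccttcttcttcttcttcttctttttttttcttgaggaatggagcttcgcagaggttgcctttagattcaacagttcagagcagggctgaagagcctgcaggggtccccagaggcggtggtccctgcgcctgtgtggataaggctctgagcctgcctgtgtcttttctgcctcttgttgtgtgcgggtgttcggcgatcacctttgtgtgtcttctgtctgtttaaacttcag

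The L-type gene Cacna1c (Entrez gene 12288), which encodes the main voltage-gated calcium channel of smooth muscle, stood at 9.66 in VAS, 9.74 in VAD, 10.11 in CTR and 9.68 in BMS. As with Cacna1e, CTR was the highest array and the others lay within 0.10 of each other, but the size was smaller, with 0.45 in CTR minus VAS and -0.42 in BMS minus CTR. The second L-type gene, Cacna1d (Entrez gene 12289), which opens at more negative voltage, ran the other way. It stood at 7.35 in VAS, 7.41 in VAD, 6.56 in CTR and 6.96 in BMS, so both arrays of the antagonist experiment lay below both arrays of the diet experiment. Cacna1d differed by -0.79 in CTR minus VAS, a 1.73-fold size, by 0.39 in BMS minus CTR and by 0.06 in VAD minus VAS. The T-type gene Cacna1g, a channel of low-voltage currents, was 0.57 higher in BMS than in CTR (6.96 and 6.39) and stood at 6.74 in VAS and 6.87 in VAD. Cacna1a, the P/Q-type gene of nerve terminals, spanned 6.18 to 6.70 over the 4 arrays, and the T-type gene Cacna1h 5.87 to 6.07.

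Of the accessory subunits, which set the surface number and gating of the channels, 6 were past the filter and none was 1.5-fold apart in any of the 3 comparisons. The alpha2-delta gene Cacna2d3 came nearest, with 7.48 in VAS, 7.85 in VAD, 8.05 in CTR and 7.97 in BMS. VAS was its low array, and CTR minus VAS was 0.57. Cacna2d1, the alpha2-delta gene of muscle, was lowest in VAD, with 8.18 against 8.48 in VAS, 8.45 in CTR and 8.49 in BMS. The beta subunit genes Cacnb1 and Cacnb2 spanned 0.21 and 0.23 over the arrays. The gamma subunit gene Cacng7 had the smallest span of the 35, 0.05, from 8.99 to 9.03.

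Of the 35 genes, the calsequestrin genes of the store, Casq1 and Casq2, were those at least 1.5-fold apart in VAD and VAS, both higher in VAD. Casq2 (Entrez gene 12373), the calsequestrin form of cardiac and smooth muscle, stood at 6.61 in VAS, 7.39 in VAD, 6.19 in CTR and 6.80 in BMS. It was higher in the treated array of each experiment, by 0.78 in VAD minus VAS, a 1.71-fold size, and by 0.61 in BMS minus CTR, a 1.53-fold size. The controls differed as well, with CTR minus VAS at -0.42, and BMS stood 0.19 above VAS. Casq1 (Entrez gene 12372), the skeletal muscle form, stood at 6.43 in VAS, 7.02 in VAD, 6.30 in CTR and 5.94 in BMS. It was 0.59 higher in VAD than in VAS, a 1.5-fold size, and differed by -0.36 in BMS minus CTR, so the calsequestrin genes went the same way in the diet experiment and opposite ways in the antagonist experiment.

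Casq2 and Casq1 are also genes of striated muscle, whose markers were followed beside them. Of 12 cardiac myocyte markers measured, 3 were past the filter, Actc1, Tnnt2 and Tnni3, and none of these was above 0 in VAD minus VAS or in BMS minus CTR. Their median was -0.14 in VAD minus VAS and -0.22 in BMS minus CTR. The summed linear level of all 12 was 7843 in VAS, 7185 in VAD, 5711 in CTR and 4854 in BMS. Actc1 (12.58 in VAS) and Tnnt2 (10.36) have the highest values in that sum and make up most of it, so it says little of the other markers. The atrial and ventricular genes Myh6, Myl4, Myl7 and Sln lay below the filter on all 4 arrays. Below the filter, Nppa, an atrial peptide gene, was above 0 in both experiments, by 0.53 and 0.11 (5.34, 5.87, 5.24 and 5.35). Myh6 (0.26 and 0.09) and Myl4 (0.0034 and 0.26) were above 0 in both as well. Myl7 (-0.75 and -0.04) and Ttn (-0.02 and -0.07) were below 0 in both. Actn2, Mybpc3, Myoz2 and Sln, also below the filter, went opposite ways in the experiments. Of 11 skeletal myocyte markers, 6 were past the filter, with a median of -0.0078 in VAD minus VAS and 0.14 in BMS minus CTR, and a summed linear level of 1021, 997, 810 and 868 in VAS, VAD, CTR and BMS. These 6 were divided. In VAD minus VAS, Acta1 (0.25), Tnnc2 (0.26) and Ckm (0.21) were above 0, and Tnni2 (-0.51), Tnnt3 (-0.31) and Pvalb (-0.22) below. In BMS minus CTR, Ckm (-0.12) was below 0 and the others were above, by 0.04 to 0.49. Smooth muscle markers moved with Casq2 in VAD and not in BMS: all 10 were above 0 in VAD minus VAS, with a median of 0.19, and 0 of 10 in BMS minus CTR, with a median of -0.17. The part of cardiac, skeletal or smooth muscle cells in the Casq2 and Casq1 values was not tested.

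The Casq2 promoter is shown because Casq2 was the member with the lowest p in the test of both experiments together, given below. It is the 250 bases before the RefSeq start (GRCm38.p6, chr3:102086165-102086414, plus strand), 5′ to 3′. AGGTCA and TGACCT are not in this window either, and there are no capitals.
Casq2: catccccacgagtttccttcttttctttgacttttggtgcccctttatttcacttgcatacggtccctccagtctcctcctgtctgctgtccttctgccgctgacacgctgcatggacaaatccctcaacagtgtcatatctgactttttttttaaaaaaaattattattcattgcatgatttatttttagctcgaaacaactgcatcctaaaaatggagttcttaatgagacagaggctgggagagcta

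**Figure D2:**
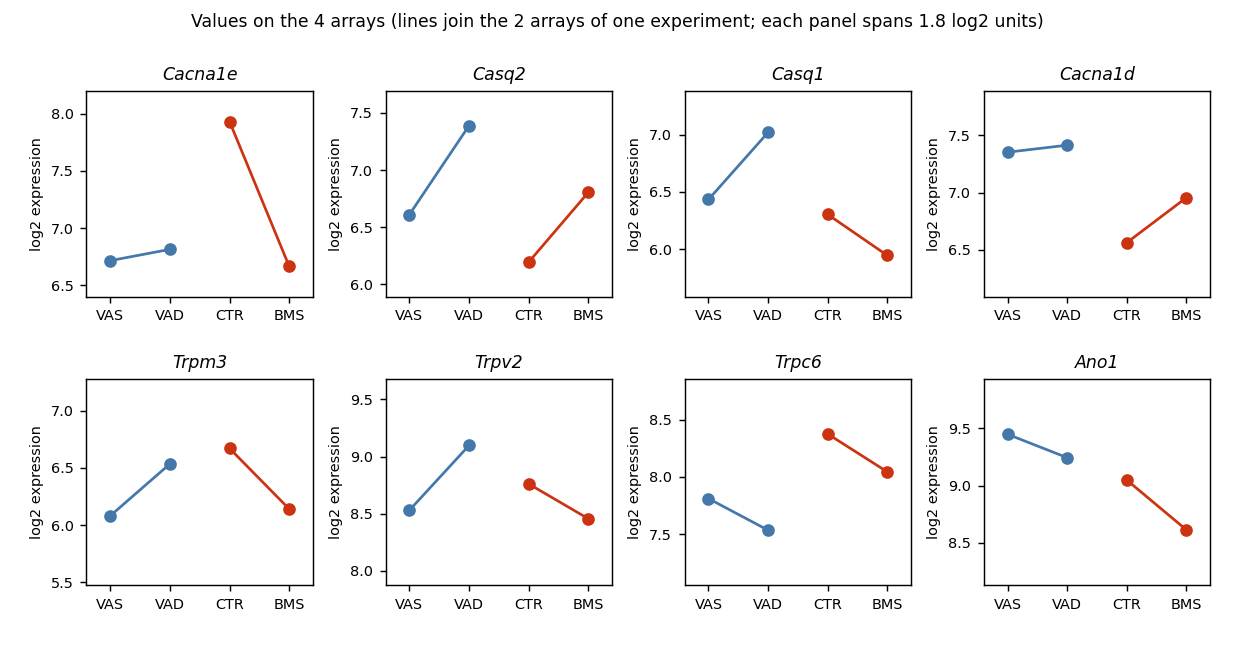
Log2 expression of 8 calcium genes on the 4 arrays, with 1 point per array and lines joining the arrays of one experiment. Each panel spans the same number of log2 units around its own level. Cacna1e is high in CTR alone, at 7.93, and Casq2 is higher in VAD than in VAS and in BMS than in CTR.

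The pumps and release channels of the store differed by less. Atp2a2 (Entrez gene 11938), the main SERCA pump of cardiac and smooth muscle, stood at 11.42 in VAS, 11.40 in VAD, 11.72 in CTR and 11.45 in BMS. CTR was the high array, 0.30 above VAS, and the rest lay within 0.05 of each other. Atp2a3, a SERCA form of many non-muscle cells, stood at 6.81, 6.94, 6.55 and 6.73 in the same order and was lowest in CTR. The inositol trisphosphate receptor gene Itpr2 (Entrez gene 16439) stood at 7.89, 7.97, 8.30 and 8.04, again with CTR highest, 0.42 above VAS and 0.26 above BMS. The ryanodine receptor gene Ryr2 stood at 6.0, 5.86, 6.15 and 6.0, and passed the filter on CTR alone. At the plasma membrane, Atp2b4, a calcium pump abundant in muscle, was lowest in VAS with 9.60 and stood at 9.79 in VAD, 9.93 in CTR and 9.91 in BMS. The widely expressed pump Atp2b1 spanned 9.0 to 9.30 and the Golgi pump Atp2c1 7.81 to 7.98.

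Store-operated entry was the family in which all 5 members passed the filter, and all 5 were above 0 in BMS minus CTR, by 0.14 to 0.26. Of all 35 calcium genes, 15 were above 0 there (42.9%), and of all genes past the filter 51.4%. None of the 5 was 1.5-fold apart in any comparison. The store sensor Stim1 (Entrez gene 20866) stood at 8.40 in VAS, 8.24 in VAD, 8.15 in CTR and 8.28 in BMS. Its relative Stim2 (Entrez gene 116873) stood at 8.64, 8.64, 8.54 and 8.78. Of the pore genes, Orai1 stood at 6.47, 6.30, 6.40 and 6.6, with VAD lowest and BMS highest. Orai2 (Entrez gene 269717) stood at 6.43, 6.82, 6.58 and 6.84, above its control in both experiments, by 0.39 in VAD minus VAS and 0.26 in BMS minus CTR, and both of these arrays also lay above the other control. Orai3 stood at 7.75, 7.94, 8.03 and 8.18, and was likewise above its control in both, by 0.19 and 0.15. In VAD minus VAS the family was split, with 2 of 5 above 0.

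Among the Trp channels, which carry calcium and other cations, 7 channel genes passed the filter. Trpm3 (Entrez gene 226025), a channel opened by steroids and heat, stood at 6.08 in VAS, 6.54 in VAD, 6.67 in CTR and 6.14 in BMS, and was 0.59 higher in CTR than in VAS, a 1.5-fold size. Trpm3 was 0.45 higher in VAD than in VAS and differed by -0.53 in BMS minus CTR, so VAD and CTR were high and VAS and BMS low. Trpv2 (Entrez gene 22368), a channel of heat and membrane stretch, was highest in VAD, with 8.53, 9.10, 8.76 and 8.46 in VAS, VAD, CTR and BMS. Its difference of 0.57 in VAD minus VAS lay just under 1.5-fold, and it differed by -0.30 in BMS minus CTR. Trpc6, a channel opened by diacylglycerol downstream of contractile receptors, stood at 7.81, 7.53, 8.38 and 8.04. It was below its control in both experiments, by -0.28 and -0.33, and the control arrays themselves were 0.57 apart. Trpc1 was also below its control in both, by -0.17 and -0.17, from 8.50 in VAS and 8.37 in CTR. Trpm4, a calcium-activated cation channel, stood at 6.76, 6.74, 7.19 and 6.90, and Trpm7, a channel joined to a kinase, spanned 9.12 to 9.26. Trpc2, which serves pheromone sensing in mice, spanned 6.26 to 6.53, and the non-channel gene Trpc4ap stood at 8.56, 8.79, 9.04 and 8.89.

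Ano1 (Entrez gene 101772) stood at 9.45 in VAS, 9.24 in VAD, 9.05 in CTR and 8.61 in BMS. The treated array was below its control in both experiments, by -0.20 and -0.44, and the controls differed by -0.40. BMS against VAS was the widest pair, at -0.84, which takes in both the experiment and the antagonist.

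**Figure D3:**
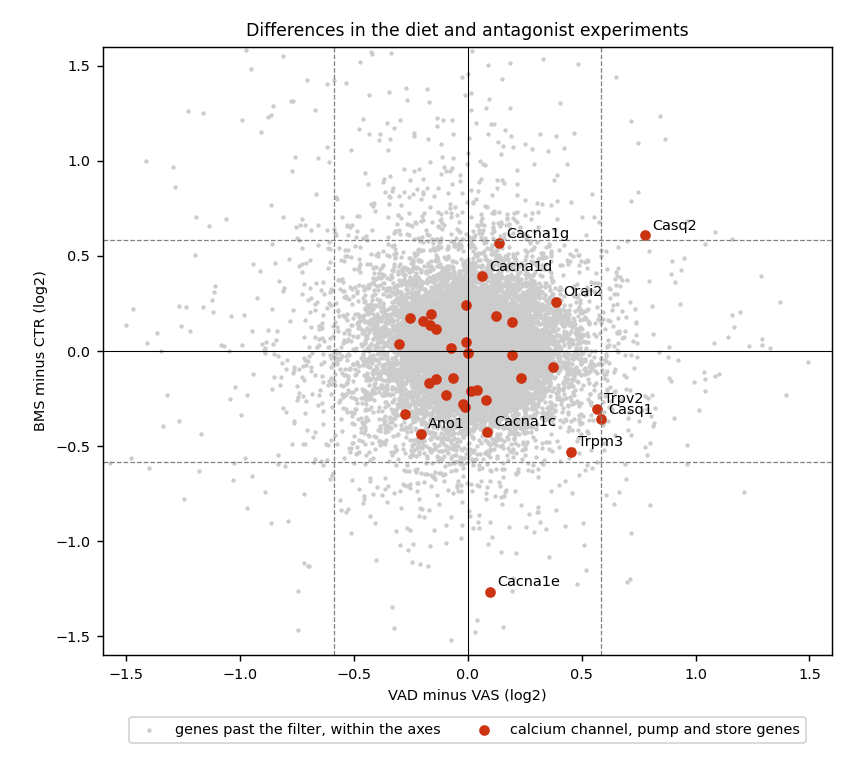
Difference in the diet experiment (VAD minus VAS, horizontal) against that in the antagonist experiment (BMS minus CTR, vertical), both in log2 units, which share no array. Red points are the 35 calcium genes past the filter, grey points all genes past the filter within the axes, and dashed lines mark 1.5-fold. Casq2 is the red point past 1.5-fold in both experiments, at 0.78 and 0.61. The number of grey points past 1.5-fold in both is not given.

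The diet and antagonist experiments use separate arrays, so their directions can be set side by side. Of the 35 genes, 14 went the same way in both, 6 higher and 8 lower, beside 48.9% of all genes past the filter. Ryr2, among the 8 lower, passed the filter only through its CTR value, so its place there depends on the filter. Casq2 was the one of the 35 that was at least 1.5-fold apart in both. The share of all genes past the filter that were 1.5-fold apart in both is not given here, so this does not set Casq2 apart. A test over both experiments set VAD and BMS against VAS and CTR, with the experiment as a block, by limma with Benjamini-Hochberg adjustment over all 12395 genes. It called 0 of the 35 at an adjusted p under 0.05, beside 0% of all genes. At an unadjusted p under 0.05 it had 1 of the 35, Casq2, beside 3.84% of all genes. For Casq2 the fit gave 0.69 ± 0.14 (SE), higher in 2 of 2 experiments, with an unadjusted limma p of 0.0039 and an adjusted limma p of 1. Cacna1e was at -0.58 ± 0.34 (SE), with an adjusted limma p of 1. The fit has 1 residual degree of freedom, so a lack of calls does not show that values were alike. Single arrays set these values. Leaving out CTR, with no block, moved Cacna1e to 0.02, and leaving out VAS moved it to -1.19, with an unadjusted limma p of 0.0021 and an adjusted limma p of 0.98. Casq2 was at 0.40 without VAD (unadjusted limma p 0.19), 0.49 without CTR (0.18), 0.90 without VAS (0.039) and 0.99 without BMS (0.014), with an adjusted limma p of at least 0.89 in each.

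The control arrays differed for part of the group. CTR was the highest of the 4 arrays for 15 of the 35 calcium genes, beside 26.7% of all genes past the filter. VAS was the highest for 5 of the 35, beside 26.7%. Ryr2 passed the filter on CTR alone and Cacna1h on VAS alone. Their places in these counts, and in those of CTR minus VAS, therefore depend on the filter. CTR was also the lowest array for 8 of the 35, beside 26.9% of all genes. In CTR minus VAS, 21 of the 35 were above 0 (60%), beside 50.4% of all genes, while the share 1.5-fold apart, 8.57%, was near the 8.54% of all genes. The 15 were Cacna1c, Cacna1e, Cacna2d3, Cacnb1, Cacnb2, Ryr2, Itpr2, Atp2a2, Atp2b4, Trpc2, Trpc6, Trpm3, Trpm4, Trpm7 and the non-channel gene Trpc4ap. Both control groups were vitamin A-sufficient and differ in experiment, diet form, vehicle and mice, which cannot be told apart. All 10 smooth muscle markers were past the filter. They were near even between the controls, with a median of 0.0035 in CTR minus VAS and 5 of 10 above 0. Their summed linear level was 24642, 28689, 24323 and 21893 in VAS, VAD, CTR and BMS. Acta2, the gene of the reporter kept, stood at 11.96, 12.12, 11.98 and 11.95 in VAS, VAD, CTR and BMS. Pericyte and vascular smooth muscle markers were above 0 for 9 of 9, with a median of 0.34, and their summed linear level was 6719, 7820, 9479 and 8030. Cspg4, the gene of the reporter left out, was among them, with 7.71, 8.22, 8.08 and 7.98. Many of the calcium genes are also expressed in vascular muscle, and the part of these cells in the CTR values was not tested. In BMS minus CTR, 1 of the 9 was above 0, with a median of -0.26. In VAD minus VAS, 7 of the 9 were, with a median of 0.23, and all 9 were past the filter.

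Fibroblast markers were also higher in BMS than in CTR. All 12 were above 0 in BMS minus CTR, with a median of 0.45, and 5 were 2-fold higher, Cd34, Pdgfra, Clec3b, Scara5 and Pi16, while CTR minus VAS had a median of -0.23. Of these 5, 4 were also 2-fold lower in CTR than in VAS, Cd34 (-1.37), Clec3b (-1.49), Scara5 (-1.01) and Pi16 (-2.14), and Pdgfra differed by -0.38. The summed linear level of the 12 fibroblast markers was 21344, 20138, 18767 and 24808 in VAS, VAD, CTR and BMS. Dcn (12.56 in VAS) and Dpt (12.43) have the highest values in that sum. In BMS it stood above the sum of the smooth muscle markers given above. Sums of different lists come from different probes and do not give shares of cells. The summed linear level of epithelial markers was highest in VAS, with 2805, 1351, 815 and 1211, where Sftpc alone stood at 10.86, 9.28, 7.32 and 9.15 on the log2 scale. The club cell genes Cyp2f2 (6.07, 6.6, 6.29 and 6.62) and Scgb1a1 (5.84, 6.09, 6.27 and 5.79) were not highest in VAS. By summed linear level, endothelial markers ran at 2028, 2273, 2266 and 2591, and macrophage markers at 1013, 995, 778 and 731. Lymphocyte and granulocyte markers ran at 1696, 1967, 1064 and 927. Of the 4 past the filter on this last list, S100a9 (-2.74) and S100a8 (-2.00) were lower in CTR than in VAS, and 1 was higher. Single markers on these lists that were past the filter and 2-fold apart in an experiment were the surfactant genes Sftpc (-1.58 in VAD minus VAS, 1.82 in BMS minus CTR) and Sftpa1 (-1.08 in VAD minus VAS), the granzyme gene Gzma (1.37 in VAD minus VAS) and the endothelial receptor gene Tek (1.42 in BMS minus CTR). Gzma, with 5.33, 6.70, 5.18 and 5.44, passed the filter on VAD alone, so its place among these depends on that difference. The T cell gene Cd3g, below the filter, differed by -1.43 in VAD minus VAS (5.93 and 4.51). Cd3e, a T cell gene past the filter, went the other way, by 0.71 (8.99 in VAS and 9.69 in VAD). The part of these cells in the calcium genes was not tested.

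Other genes of calcium handling were read from 6 partner lists with 69 measured genes, 57 of them past the filter. In VAD minus VAS, 3 were at least 1.5-fold apart, 1 higher and 2 lower, beside 3.57% of all genes, and the median of the 57 was 0.03. In BMS minus CTR, 1 was 1.5-fold apart, higher, beside 5% of all genes, with a median of 0.02. In the joint limma fit 0 of the 57 had an adjusted p under 0.05, beside 0% of all genes. At an unadjusted p under 0.05 it had 2 of the 57, Jph1 and Piezo2, beside 3.84% of all genes. Piezo2 passed the filter only through its high value in BMS, a treated array, so its place among the 57 depends on the difference tested.

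The partner genes past 1.5-fold in VAD belonged to the release unit of the store. Trdn, which encodes triadin and ties calsequestrin to the ryanodine receptor, stood at 7.91 in VAS, 6.86 in VAD, 6.72 in CTR and 6.72 in BMS. VAS was high and the others alike, so that the -1.05 of VAD minus VAS matched no difference in BMS minus CTR (0.00048). Fkbp1b, a protein bound to ryanodine receptors, was also highest in VAS, with 7.72, 7.09, 6.86 and 7.16, and differed by 0.30 in BMS minus CTR. Jph2, a junctophilin that holds the store membrane near the plasma membrane, was 0.62 higher in VAD than in VAS and differed by -0.37 in BMS minus CTR (7.29, 7.91, 7.62 and 7.26). Tnnt2, a troponin gene on the cardiac list, was likewise highest in VAS, with 10.36, 9.59, 9.45 and 8.96. So were Actc1 and Tnni3, the other cardiac markers past the filter. Below the filter the list was divided, with Myh6 and Nppa highest in VAD, Myl4 in BMS, Ttn and Sln in CTR, and the rest in VAS. The part of cardiac cells in the partner genes was not tested. Piezo2, a stretch-activated channel gene, was 0.73 higher in BMS than in CTR, with 5.46, 5.74, 5.42 and 6.15, and passed the filter on BMS alone.

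The sodium-calcium exchangers, calmodulins and calmodulin-dependent kinases, the mitochondrial uniporter genes, and the enzymes that form and remove inositol trisphosphate held no gene 1.5-fold apart in either experiment. Their list medians lay between -0.12 and 0.12 in VAD minus VAS and between -0.05 and 0.11 in BMS minus CTR. Slc8a1, the exchanger gene of cardiac and smooth muscle, stood at 6.87, 7.0, 6.85 and 6.70.

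**Figure D4:**
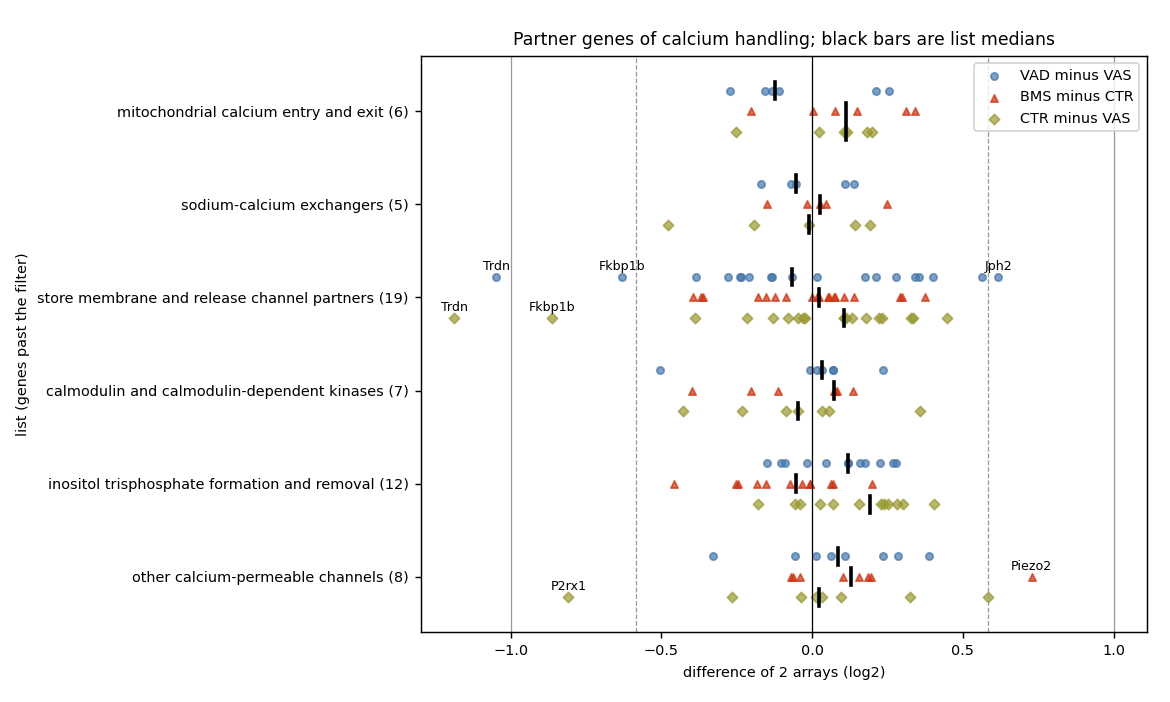
Differences of the 57 partner genes past the filter, by list, in VAD minus VAS, BMS minus CTR and CTR minus VAS, in log2 units. Each point is 1 gene, black bars are list medians, dashed lines mark 1.5-fold and solid lines 2-fold. Trdn is the point past 2-fold in VAD minus VAS and in CTR minus VAS.

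Promoter windows were found for 59 of the 70 genes in the RefSeq table (GRCm38.p6), with 75 windows of 250 bases before a start. AGGTCA on either strand was in 8 of the 75 (10.7%), beside 14.0% of all promoter windows and 10.7% of those of genes past the filter. For the members past the filter it was in 3 of 39 windows (7.69%). Of the members past the filter, Orai2, Ryr2 and Trpm3 held a match. These stretches are shown, 5′ to 3′, as the members past the filter with a match, with the matched letters in capitals. They lie at chr5:136170719-136170764 on the minus strand for Orai2, chr13:12107037-12107082 on the minus strand for Ryr2 and chr19:22447958-22447999 on the plus strand for Trpm3.
Orai2: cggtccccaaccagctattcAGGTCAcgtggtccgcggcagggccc
Ryr2: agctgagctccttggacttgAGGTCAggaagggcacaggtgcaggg
Trpm3: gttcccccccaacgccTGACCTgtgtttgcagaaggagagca

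The matches begin 88, 117 and 234 bases before the start of Orai2, Ryr2 and Trpm3, the last at 1 of its starts. Orai2 was above its control in both experiments, Ryr2 below it in both (-0.14 and -0.15), and Trpm3 above in one and below in the other. Ryr2 passed the filter only through its value on CTR, a control array, so its place here depends on the filter. The CArG box, bound by serum response factor in muscle genes, was searched as a second motif on both strands, since it reads alike on each. It was in 2 of the 75 windows (2.67%), those of Trpc6 and Trpv1, beside 1.47% of all promoter windows. Trpv1 lay below the filter. For the members past the filter it was in 1 of 39 windows (2.56%), that of Trpc6, beside 1.20% for genes past the filter. A match is a description of letters and not a shown binding site.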

How the data were processed

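RNA of sorted airway smooth muscle cells was measured on 4 arrays, 1 per group, and groups were taken from the sample titles. The deposited log2 values come from RMA as run by the authors in affy 1.36.1 and R 2.15.1, per the submitters' processing notes. RMA corrects background, equalises the arrays' distributions and summarises probes, so that a change common to most genes is hidden. Whether the arrays were normalized with others, and the genome build, are not given in the sources used here. Detection above background cannot be judged, and having 4 arrays limits the precision.

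GEO's platform annotation gave 1 gene symbol for 23185 of 25206 probe sets and several for 0, and 2021 are unnamed here. All 23185 matched RefSeq by Entrez number, with 0 changed symbols. The filter asked that a gene's highest value be at least 6.05, the median over all named genes and arrays. Differences of 2 arrays carry no test and were counted at 2-fold and 1.5-fold beside all genes. The joint test was limma 3.58.1 (lmFit, eBayes) in R 4.3.3. Summed linear levels of marker lists are sums of 2 to the power of the log2 values over all measured markers. Python 3.11.15, numpy 2.4.6, pandas 2.3.3 and matplotlib 3.10.9 were used. The fit and the counts were tested on simulated data.

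The genes, lists and tests were chosen with earlier results of these data known. Full values were given for calcium genes past the filter and 1.5-fold apart in any of the 3 comparisons, for the store families past the filter, and for Cacna1c and Ano1. Partner genes were named where 1.5-fold apart in an experiment, and markers where 2-fold apart. Other calcium genes, the partner genes Slc8a1 and Jph1, and other markers, such as Syt1, Tnnt2, Nppa and Cyp2f2, were chosen after values were seen. So were the Casq2 promoter, the promoter matches shown and the CArG search. Alternatives were a filter at the 75th percentile or none, quantile normalization again, cyclic loess, the other experiment's control, a 1.5-fold threshold, limma without the block or with an intensity trend, and leaving out each array.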

Additional observations from a re-analysis of the deposited data

How the results depend on the processing

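The 2-fold counts of the calcium genes stayed within 1.5 times without the filter, with one at the 75th percentile, with quantile normalization again and with cyclic loess. Their medians moved by less than 0.1 on the log2 scale, a tolerance about as large as the medians. Without the filter the median was 0.010 in BMS minus CTR in place of -0.08, with the sign turned, and 0.020 in CTR minus VAS in place of 0.10. In VAD minus VAS it was -0.013 with the stricter filter in place of 0.0027. The control decided more. Against CTR in place of VAS, 2 calcium genes were 2-fold apart in VAD (Casq2 higher, Cacna1e lower) in place of 0, and the median was -0.13. Against VAS in place of CTR, 0 were 2-fold apart in BMS in place of 1, and the median was 0.025. At 1.5-fold the counts were 2 in VAD minus VAS, 2 in BMS minus CTR and 3 in CTR minus VAS. Cacna1e in BMS was at -0.05 and Casq2 at 0.19 against VAS. In the joint limma fit, every setting called 0 calcium genes, as did leaving out each array (0 to 0), where the unadjusted p of Casq2 ran from 0.014 to 0.19 and its adjusted limma p from 0.89 to 1. The joint fit pairs arrays through the experiment as a block, since the labels give no replicate numbers; with no replicate block it gave Casq2 the same 0.69, with an unadjusted limma p of 0.040 and an adjusted limma p of 1. With 1 pooled array per group, no difference has a replicate check.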
